A study of Mus musculus with 3 samples.

Results

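The GIMAP family of GTPases (GTPases of the immunity-associated proteins) was followed across single naive CD4 T cells of the mouse. The 8 members, Gimap1, Gimap3, Gimap4, Gimap5, Gimap6, Gimap7, Gimap8 and Gimap9, were taken by name from the 14355 genes of the count table, whatever their level. C57BL/6 mice aged 8 to 12 weeks, males and females pooled, gave the cells from their spleen and lymph nodes, and the labels name no transgene or treatment. They had been sorted singly over the range of surface CD5, a protein whose level on naive T cells follows the strength of signals from self-ligands, and were profiled on 3 plates by SORT-seq, which counts the 3′ ends of transcripts by unique molecular identifier (UMI). The authors' Low CD5 class holds 174 cells, the Middle class 349 and the High class 174, with median CD5 fluorescence of 16646.5, 45073 and 89856.

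GIMAP proteins bind guanine nucleotides through a domain related to that of the septins, and several of them sit on the membranes of lysosomes, mitochondria or other organelles. The family is expressed mainly in lymphocytes, where loss of Gimap5 or Gimap1 leads to a shortage of mature T cells. Gimap5 and Gimap3 have been linked to the BCL2 family of survival regulators, Gimap6 binds the autophagy protein GABARAPL2, and Gimap4 has been tied to the course of T cell death.

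Plates 1, 2 and 3 held 172, 201 and 324 cells with median totals of 3749, 5449 and 3952 UMIs per cell, and 3244019 UMIs in all. By class, Low cells had a median total of 4554 UMIs, Middle cells 4232 and High cells 3818. Of the 372 wells in use, and thus of the cell barcodes, 285 occurred on more than 1 plate, since the plates used 1 set of primers. Markers of the labelled cell type were present. The 6 T cell markers were found in 58.7% (Cd247) to 95.7% (Cd4) of cells, with Cd3e in 80.6%. The 6 naive markers were found in 60.3% (Il7r) to 84.8% (Lef1). The B cell list (4 of 6 genes have a row) summed to 0 to 80.0 CPM (UMIs per 1000000 UMIs) over the 9 combinations of plate and class. The CD8 list (2 of 2) summed to 9.33 to 22.1 CPM, the NK cell list (3 of 5) to 3.99 to 62.2 CPM. The myeloid list (3 of 5) summed to 164 to 395 CPM, with Ctss found in 40.2% of cells, Cst3 in 19.9% and Itgam in 2.01%. The endothelial list (2 of 3) summed to 93.9 to 280 CPM, with Pecam1 found in 31.3% of cells and Cdh5 in 0.287%. The regulatory T cell list of 4 genes, Foxp3 among them, was at 14.5, 108 and 60.7 CPM in the Low class of plates 1, 2 and 3 and at 35.4, 136 and 118 CPM in the High class, higher in each plate, and its part in the results was not tested. Plate 2 stood apart: Cd5 transcript differed between High and Low cells by 2.72, 0.12 and 2.75 on the log2 scale in plates 1, 2 and 3, so the members' class differences are also given without plate 2. Whether the CD5 values of plate 2 belong to the libraries they are paired with was not tested, and every class or slope value of that plate rests on this pairing.

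All 8 genes lie side by side on chromosome 6, over 123618 bp between 48647234 and 48770851 of mm10, in the order Gimap8, Gimap9, Gimap4, Gimap6, Gimap7, Gimap1, Gimap5 and Gimap3 (GENCODE M21). Gimap6 (48701582 to 48708225) and Gimap3 (48764464 to 48770851) are on the minus strand and the other 6 are on the plus strand. Gimap4 spans 48684549 to 48692060, Gimap7 spans 48718621 to 48724636 and Gimap5 spans 48746197 to 48754210. A read-through gene, Gm28053, shares exons with Gimap7, Gimap1 and Gimap5, and Gimap1os runs antisense over Gimap1. Neither has a row of its own in the count table, and no source used here states the strand setting of the counting, so counts of Gimap1, Gimap5 and Gimap7 may include their reads. Over the last 600 bases of each transcript, where 3′ reads fall, no member shared a 50-base word with another member. Of 551 such words 36 (6.53%) in Gimap1 also occurred in Gm10310 or Gm49762, and 16 (2.90%) in Gimap3 also occurred in Gm38409. No such word of Gimap1, Gimap5 or Gimap7 occurred in Gm28053. The search covered transcript sequences on their own strand only, so it does not bear on antisense reads of Gimap1os.

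The promoter stretches of the 3 most abundant and the 2 least abundant members are shown because these neighbours differ most in level. Each is the 100 bases before the gene's RefSeq start, 5′ to 3′ on the gene's own strand, from RefSeq on GRCm38.p6, which has the coordinates of mm10. RefSeq and GENCODE starts can differ: the stretch of Gimap4 overlaps the first bases of the gene as GENCODE places it, and the RefSeq start of Gimap6 lies upstream of the GENCODE gene. Capitals mark GGAAGT, a core recognised by ETS factors, or TGTGGT, a core recognised by RUNX factors, on either strand (ACCACA is the second core read on the other strand). Gimap4 is read from chr6:48684478-48684577 on the plus strand, Gimap3 from chr6:48770852-48770951 and Gimap6 from chr6:48708245-48708344 on the minus strand, and Gimap5 from chr6:48746097-48746196 and Gimap7 from chr6:48718521-48718620 on the plus strand.
Gimap4: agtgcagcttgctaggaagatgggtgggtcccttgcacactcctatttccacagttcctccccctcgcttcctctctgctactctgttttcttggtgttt
Gimap3: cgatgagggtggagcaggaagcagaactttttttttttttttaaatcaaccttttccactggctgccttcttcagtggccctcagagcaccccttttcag
Gimap6: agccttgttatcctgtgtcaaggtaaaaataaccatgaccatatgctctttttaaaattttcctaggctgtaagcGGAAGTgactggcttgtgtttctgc
Gimap5: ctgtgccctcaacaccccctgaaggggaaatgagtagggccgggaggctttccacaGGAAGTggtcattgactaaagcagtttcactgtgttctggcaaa
Gimap7: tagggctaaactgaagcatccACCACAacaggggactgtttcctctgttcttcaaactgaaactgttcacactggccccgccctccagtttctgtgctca
Over the 250 bases before the start, GGAAGT occurred on either strand at 1 position for Gimap6 (25 bases before the start) and at 2 for Gimap5 (44 and 216 bases before), against 19.7% of 32851 mouse promoters of that length holding it. TGTGGT occurred once on either strand for Gimap4 (145 bases before, outside the stretch shown), Gimap7 (79) and Gimap1 (95), against 14.0% of promoters. GGGCGG, a core of KLF and SP sites, was found for Gimap9 and Gimap7, against 32.7% of promoters. TATAAA was found for Gimap6 alone, against 12.4%, and CAGCTG, an E-box, for none of the 8, against 13.0%. No motif was thus common to the most abundant members, and Gimap3 held none of the 5 in this window.

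The family as a whole reached 3161, 2910 and 3103 CPM on plates 1, 2 and 3, a mean of 3058 ± 131 CPM (SD, n = 3 plates), from 9894 UMIs. It made up 0.305% of all UMIs, and 98.9% of cells (exact Clopper-Pearson 95% interval 97.8% to 99.5%) held at least 1 family UMI. UMI counts need no scaling by transcript length, so levels of different members are set side by side. Differences between genes in capture or in the assignment of reads were not measured. All cells passed 1 sort gate, and the share of cells with a UMI in a cell type without GIMAP expression was not measured here. Intervals of shares cover counting error only.

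Gimap4, Gimap3 and Gimap6 were the abundant members and held 72.8% of the family's UMIs. Gimap4 was at 918, 710 and 853 CPM on plates 1, 2 and 3 (827 ± 106 CPM), which placed it 147th among all genes, and was found in 87.1% of cells. Gimap3, whose product sits on intracellular membranes and has been linked to mitochondrial DNA segregation, was at 759, 666 and 694 CPM (706 ± 48.0 CPM) and was found in 81.9% of cells. Gimap6 was at 686, 740 and 684 CPM (703 ± 31.5 CPM) and was found in 81.5% of cells. The ranges of Gimap4 and Gimap3, and those of Gimap3 and Gimap6, overlapped between plates, so these 3 could not be ordered beyond their spread.

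Gimap8, whose protein is the longest of the family and has several GTPase domains, followed at 401, 292 and 406 CPM (366 ± 64.5 CPM) and was found in 66.9% of cells. Gimap1 was at 172, 193 and 194 CPM (186 ± 12.3 CPM, 44.5% of cells). Gimap9 was at 143, 135 and 169 CPM (149 ± 17.7 CPM, 37.4% of cells). Each of these 3 ranges lay apart from the next, so the order of Gimap6, Gimap8, Gimap1 and Gimap9 held in each plate. Gimap5, the member whose loss causes lymphopenia in rats and mice, was far lower at 50.9, 111 and 53.4 CPM (71.6 ± 33.7 CPM, 16.4% of cells). Gimap7, whose protein is known to form dimers when bound to GTP, was the lowest at 30.3, 64.7 and 50.6 CPM (48.5 ± 17.3 CPM, 13.2% of cells). The ranges of Gimap5 and Gimap7 overlapped each other and lay below that of Gimap9, and the highest member exceeded the lowest 17.0-fold.

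**Figure D1:**
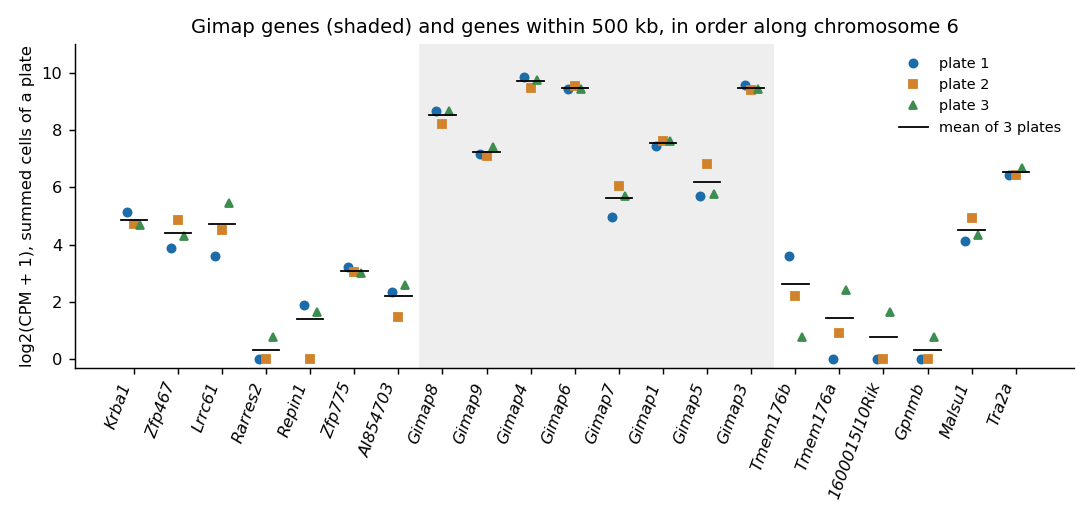
Level of the 8 Gimap genes (shaded) and of 13 neighbouring genes in chromosomal order, as log2(CPM + 1) of the cells summed per plate, with 1 point per plate (n = 3). By mean level the Gimap genes stand above their neighbours on both sides, except that Tra2a (90.8 CPM) lies above Gimap5 and Gimap7.

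The high levels ended at the borders of the cluster. Within 500 kb, 13 other genes have a row in the table, 7 before the cluster and 6 after it, with a median level of 5.11 CPM. Tra2a, which encodes a splicing factor, was the highest at 90.8 ± 9.52 CPM, in mean level above Gimap5 and Gimap7 and below the other 6 members. The nearest genes on either side, AI854703 at 3.64 ± 1.65 CPM and Tmem176b at 5.11 ± 5.32 CPM, lay below each member in mean level, as did the other 10 (0.24 to 28.2 CPM). On plate 1 alone, Krba1 at 34.4 CPM lay above Gimap7 at 30.3 CPM. In the plot of levels along the chromosome, 6 members thus stand above all neighbours in mean level, while Gimap5 and Gimap7 do not.

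Relative to its mean, Gimap5 had the widest spread between plates, ahead of Gimap7. Plate 2 held 6 cells with at least 5 Gimap5 UMIs, against 0 on plate 1 and 2 on plate 3, and these 6 cells carried 52 of the plate's 123 Gimap5 UMIs. Without cells of at least 5 UMIs the level was 50.9, 66.0 and 44.4 CPM on plates 1, 2 and 3, a limit chosen after the values were seen. After each cell had been thinned at random to 2000 UMIs, Gimap5 was found in 9.38% of cells on plate 1 (95% interval 4.94% to 15.8%), in 17.5% on plate 2 (12.2% to 23.9%) and in 8.82% on plate 3 (5.74% to 12.8%). Unthinned, the shares were 14.0%, 22.4% and 13.9%. Gimap7 showed a smaller excess of this kind, with 3 plate 2 cells holding 26 of 72 UMIs and a level of 42.2 CPM without them.

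The first question put to the classes was whether GIMAP transcripts differ between T cells of low and high CD5. None of the 8 members passed the test between the High and Low classes in sums of cells per plate and class (edgeR's quasi-likelihood test, plate as a block, Benjamini-Hochberg adjusted p of 0.914 to 0.989). In the same fit 9 of 4813 genes passed, a background of 0.187%, among them Cd5 itself (log2 difference 1.70, SE 0.30, adjusted p 0.00213). At an unadjusted p under 0.05 there were 0 members against 298 genes (6.19%), and DESeq2's Wald test called 0 members and 0 genes. Of the members 4 had a positive and 4 a negative difference, with a median of 0.03 on the log2 scale beside 0.004 over all genes tested. With plate as a block, these p-values rest on how far class differences vary from plate to plate. The plates are not stated to come from separate animals, so that variation may be technical.

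The 3 abundant members had the narrowest intervals. Gimap4 was at 894, 663 and 930 CPM in the Low class of plates 1, 2 and 3 and at 962, 867 and 782 CPM in the High class, with a fitted log2 difference of 0.08 (SE 0.13, 95% interval -0.18 to 0.35). Gimap3 was at 759, 723 and 742 CPM in Low cells and 825, 630 and 734 CPM in High cells, a log2 difference of -0.03 (SE 0.14, interval -0.30 to 0.25). For both, the ranges of the classes overlapped and the plates did not share a direction. Gimap6 was at 759, 699 and 720 CPM in Low cells and at 622, 689 and 697 CPM in High cells, lower in High in 3 of 3 plates, with a log2 difference of -0.11 (SE 0.14, interval -0.38 to 0.17). It was the only member whose Low and High values did not overlap, against 380 of 4813 genes (7.90%), and its difference did not pass the test (adjusted p 0.977) and was -0.037 without plate 1 and -0.17 without plate 3. As folds, the intervals of Gimap4, Gimap3 and Gimap6 ran from 0.882 to 1.27, from 0.813 to 1.19 and from 0.767 to 1.12.

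Gimap8 and Gimap7 had the larger fitted differences in either direction. Gimap8 was at 541, 343 and 419 CPM in Low cells and at 389, 268 and 416 CPM in High cells, lower in 3 of 3 plates, with a log2 difference of -0.27 (SE 0.18, interval -0.64 to 0.10, adjusted p 0.914). Most of that difference lay on plates 1 and 2, the ranges of the classes overlapped, and the difference was -0.17 without plate 1 and -0.44 without plate 3. Gimap7 was at 19.3, 63.8 and 33.1 CPM in Low cells and at 25.3, 104 and 44.0 CPM in High cells, higher in 3 of 3 plates, with a log2 difference of 0.56 (SE 0.47, interval -0.39 to 1.51, adjusted p 0.951). With 165 UMIs in all, Gimap7 had the widest interval of the members, from 0.764-fold to 2.84-fold. A single sign in all 3 plates, shown by 3 of 8 members, was shown by 1144 of the 4813 genes (23.8%).

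Gimap1, Gimap9 and Gimap5 varied between plates without a common direction. Gimap1 was at 193, 219 and 179 CPM in Low cells and at 126, 202 and 219.9 CPM in High cells (log2 difference -0.09, SE 0.24). Gimap9 was at 116, 124 and 143 CPM in Low cells and at 142, 160.1 and 139 CPM in High cells (log2 difference 0.21, SE 0.27). After thinning to 2000 UMIs per cell, in a single random draw, the differences of Gimap1 and Gimap9 turned, to 0.31 and -0.35. Gimap5 was at 53.1, 95.8 and 44.1 CPM in Low cells and at 40.5, 104 and 60.9 CPM in High cells (log2 difference 0.11, SE 0.38). In each of these 3 the ranges of Low and High overlapped, and for Gimap5 the gap between plate 2 and the others exceeded any gap between classes. The family summed to 3335, 2930 and 3211 CPM in Low cells (3159 ± 208 CPM, n = 3) and to 3132, 3025 and 3092 CPM in High cells (3083 ± 54.1 CPM), with the Middle class at 2988 ± 125 CPM. Without plate 2 the members' log2 differences lay between -0.21 and 0.41, and 0 passed (lowest adjusted p 0.979).

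**Figure D2:**
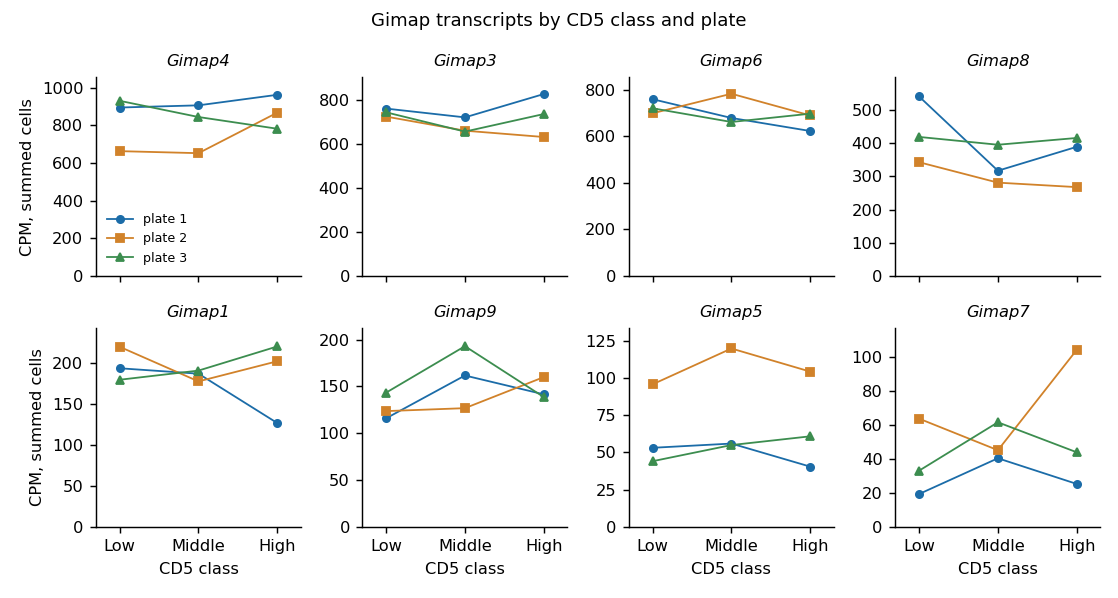
CPM of each Gimap gene in the Low, Middle and High CD5 class, with 1 line per plate and each vertical axis starting at 0. Lines rise and fall without a common direction for most members, Gimap8 and Gimap6 end lower in High than in Low in each plate, and Gimap5 of plate 2 lies above the other plates in every class.

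**Figure D3:**
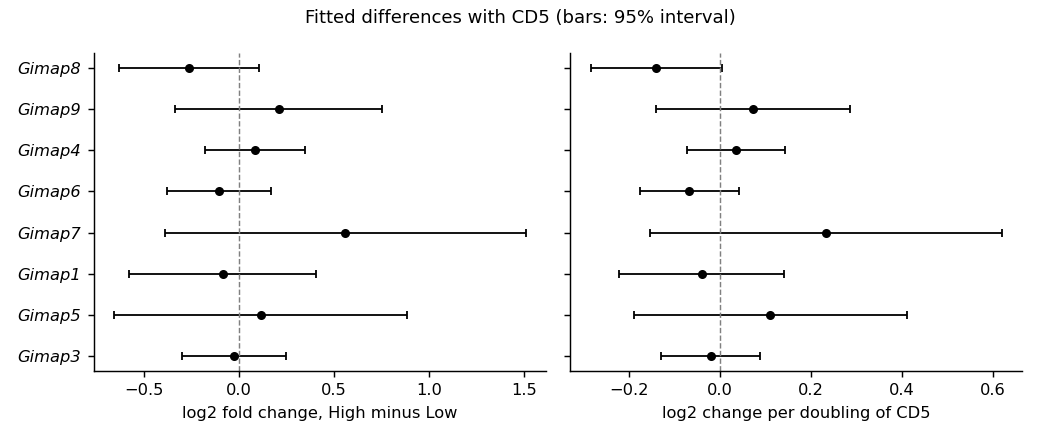
Fitted log2 difference between the High and Low classes and fitted log2 slope per doubling of CD5 for the 8 members, with 95% intervals from edgeR. All 16 intervals include 0, and that of Gimap8's slope ends nearest to it.

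The second question was whether levels follow CD5 over its whole range, with the cells of each plate ranked by CD5 and summed in 4 bins. None of the 8 members passed (adjusted p 0.9998 for each), against 6 of 5019 genes (0.12%), with 0 members and 241 genes (4.80%) at an unadjusted p under 0.05 and 3 genes called by DESeq2's Wald test. Gimap8 had the slope farthest from 0 relative to its error, -0.14 on the log2 scale per doubling of CD5 (SE 0.072, 95% interval -0.28 to 0.0048, unadjusted p 0.0578). Its level was 433 ± 120.2, 375 ± 112, 304 ± 17.8 and 349 ± 80.1 CPM from the lowest to the highest bin (n = 3), so the bins overlapped and the lowest value was in the third bin. Gimap6 went through 743 ± 23.4, 725 ± 59.0, 684 ± 103 and 656 ± 50.1 CPM, with a slope of -0.07 (SE 0.054). Both slopes were negative in 3 of 3 plates, and those of Gimap5 (0.11) and Gimap7 (0.23, SE 0.19) were positive in 3 of 3. A single sign in all 3 plates was shown by 1230 of the 5019 genes (24.5%), and the plate 1 slope of Gimap5 was 0.0098. Without plate 2 the slope of Gimap5 was 0.042, and without plate 1 that of Gimap8 was -0.092. The slopes of the other 4 members lay between -0.04 and 0.07.

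Lists of pathway genes and of other GTPases, chosen for comparison with the family, were read in the same High minus Low fit. No gene of the 6 lists passed (background 0.187%). Of 17 BCL2 family genes 3 were tested, 2 with a positive and 1 with a negative difference (median 0.13, beside 0.004 over all genes). Bcl2, the survival factor itself, was at 358 ± 72.0 CPM in Low and 582 ± 135 CPM in High cells, higher in 3 of 3 plates, with a log2 difference of 0.72 (SE 0.19, adjusted p 0.139). It passed without the filter on low counts (adjusted p 0.0396) and without plate 2 (log2 difference 0.92, adjusted p 0.0110). It did not pass without plate 1 (adjusted p 0.878), without plate 3 (0.686), by DESeq2's Wald test (0.998), without the plate block (0.998) or after thinning (log2 difference 0.47, adjusted p 0.831). Mcl1, another survival factor, differed by 0.13 and Bcl2l11, the death-promoting BIM, by -0.01. The autophagy list, which holds the GABARAP relatives that Gimap6 can bind, had 9 of 16 genes tested, 3 positive and 6 negative (median -0.05). Its values were 0.23 for Map1lc3b, -0.16 for Gabarap, -0.41 for Atg3 (-0.17 without plate 2, -0.73 without plate 3) and 1.25 for Atg16l1 (SE 0.60, adjusted p 0.791).

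Other immune or septin-like GTPases had 15 of 22 genes tested, of which 12 were negative and 3 positive (median -0.31 beside 0.004 over all genes), and 0 passed. Gbp8, an interferon-inducible guanylate-binding protein, was at 263 ± 22.8 CPM in Low and 177 ± 40.7 CPM in High cells, a log2 difference of -0.60 (SE 0.24, adjusted p 0.769). Differences were -0.33 for the septin Sept6, -0.70 for Sept2 and -0.86 for Irgm1. Irgm1 was at -0.29 without plate 3 and -1.46 without plate 1, and without plate 3 Sept6 was at -0.16, Sept2 at -0.44 and Gbp8 at -0.39. Without plate 2 Sept6 was at -0.51, and after thinning Gbp8 was at -1.10. The median of these GTPases was thus below that of the GIMAP members, a description with no test. Of 16 genes of IL-7 and FOXO1 signalling and naive T cell survival, 14 were tested, 10 positive and 4 negative (median 0.05), with Il7r, the IL-7 receptor chain, at 0.27 (SE 0.17, adjusted p 0.906), Foxp1 at 0.19 and Bach2 at 0.26. Without plate 1 these were 0.15, 0.0077 and 0.56, and Bach2 was at 0.056 without plate 2 and 0.11 without plate 3, where Foxp1 was at 0.43.

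Of 7 GSK3 and beta-catenin genes 6 were tested, 4 positive and 2 negative (median 0.36). Apc, a scaffold of the complex that degrades beta-catenin, was at 85.1 ± 2.84 CPM in Low and 25.0 ± 4.19 CPM in High cells, a log2 difference of -1.73 (SE 0.44, adjusted p 0.101), lower in 3 of 3 plates. Its adjusted p was 0.686 by DESeq2's Wald test, and in edgeR 0.788 without the plate block and 0.596 without plate 1. The other 3 named by smallest p were Axin1 (0.81), Ctnnb1 (0.58) and Gsk3b (0.54), whose adjusted p lay between 0.851 and 0.913. Of 10 Notch pathway genes 9 were tested, 6 positive and 3 negative (median 0.12). The receptor Notch1 differed by 0.88 (SE 0.40, adjusted p 0.791), the protease Adam10 by 0.78, the coactivator Maml2 by 0.71 and Ncstn, a gamma-secretase subunit, by -0.67. Without plate 1 the difference of Notch1 was 0.33, that of Axin1 0.47 and that of Gsk3b 0.19 (0.92 without plate 2), and after thinning that of Maml2 was 0.39.

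Within single cells the counts of the members were nearly uncorrelated pair by pair. Correlations were taken over cells thinned to 2000 UMIs, within each of the 3 plates (128, 177 and 272 cells, 120 shallower cells left out), and averaged. The thinning left out 21 Low, 62 Middle and 37 High cells. Over the 28 pairs of members the median Spearman rho was 0.022, and 20 of the 28 (71.4%) were positive. Among 7942105 pairs of 3986 genes the median was -0.00067 with 49.4% positive, and 5% to 95% of pairs spanned -0.067 to 0.077. Among 3849 pairs of neighbouring genes within 200 kb the median was 0.0013 and 51.0% were positive. Cells of a plate share library and depth, and rho of sparse counts is pulled towards 0, so these values are descriptions with no p.

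Gimap1 and Gimap4 gave the highest pair at 0.13 (0.09, 0.21 and 0.09 on plates 1, 2 and 3), followed by Gimap1 with Gimap3 at 0.09 and Gimap1 with Gimap8 at 0.08 (0.196, -0.029 and 0.071). The lowest pair was Gimap1 with Gimap5 at -0.05 (-0.154, -0.0046 and 0.0051), a value that came from plate 1. Of the 28 pairs 4 were positive and 1 negative in each plate. The share of all gene pairs with a single sign was not computed, so nothing is read from these counts. The 6 pairs among Gimap3, Gimap4, Gimap6 and Gimap8, for which sparse counts matter least, ran from 0.008 to 0.072 with a median of 0.026. The median rho was 0.0020 over pairs of 458 genes averaging 0.5 or more UMIs per thinned cell (5% to 95%: -0.079 to 0.092). That set had only this lower limit and was not matched to the 4 members in level. For scale, the mitochondrial ribosomal RNAs mt-Rnr1 and mt-Rnr2 reached 0.694 in the same cells, and Fos with Jun 0.069. These pairs were not matched to the members in level, so sparse counts may not lower their rho equally. The variance of the family sum was 1.10, 1.19 and 1.16 times the sum of the members' variances on plates 1, 2 and 3, a small excess in each plate.

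**Figure D4:**
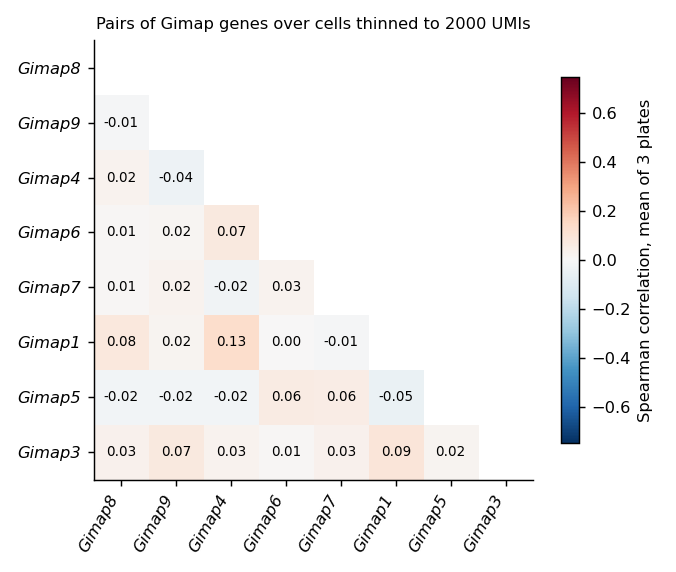
Spearman rho between the counts of each pair of Gimap genes over cells thinned to 2000 UMIs, averaged over 3 plates, on a colour scale from -0.75 to 0.75. Every pair is pale, from -0.05 to 0.13.

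Set against the sum of the other 7 members, Gimap1 had the highest rho at 0.12, Gimap4 reached 0.09 and Gimap3 and Gimap6 both 0.078. Each of these was positive in 3 of 3 plates, as was Gimap8 at 0.04. Gimap7 and Gimap5 were nearest to 0 (0.01 and 0.007). For scale, 95% of genes outside the family lay below 0.079 against the sum of all 8 members, and 99% below 0.105. The sums differ and levels were not matched, so this is a description. The median over pairs of members was 0.017 within Low, 0.023 within Middle and 0.041 within High cells, all near 0. A thinned cell held a median of 3 of the 8 members, 75.4% of cells held 3 to 6, 5 of 577 held none and 1 held all 8. Its family total had a median of 6 UMIs (5% to 95%: 2 to 12), with medians of 6, 6 and 5 in Low, Middle and High cells. In single cells the family total correlated with CD5 at -0.08, 0.05 and 0.01 on plates 1, 2 and 3, without a common sign. Plate values for single members with CD5 ran from -0.18 to 0.21.

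**Figure D5:**
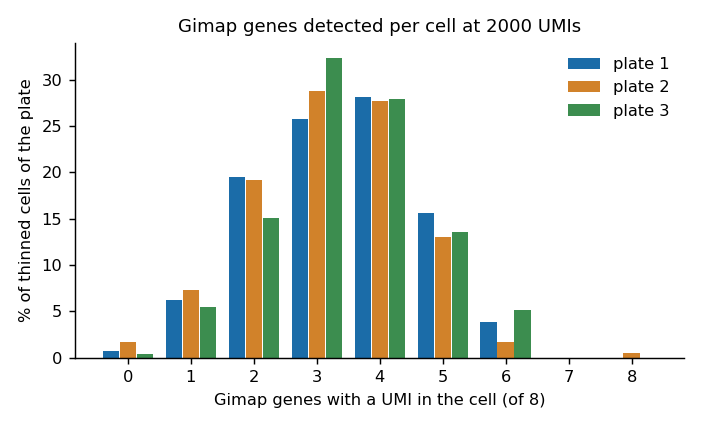
Number of Gimap genes with at least 1 UMI in each thinned cell, as a share of the cells of each plate. The 3 plates have the same median of 3, and cells without any member or with all 8 are rare (5 and 1 of 577).

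After thinning, shares of cells with a UMI were also compared between classes, as a description. Gimap3 was found in 70.6%, 71.8% and 81.8% of Low, Middle and High cells, Gimap4 in 75.2%, 74.6% and 76.6% and Gimap6 in 71.9%, 69.0% and 67.9%. Without thinning, Gimap3 was found in 82.2% of Low and 83.9% of High cells. Its level over all cells, also unthinned, was 741 ± 18.2 CPM in Low and 729.7 ± 97.5 CPM in High cells. In thinned cells its fitted log2 difference was 0.043. Gimap8 was found in 50.3%, 45.3% and 43.1%, Gimap1 in 22.2%, 29.97% and 31.4%, Gimap9 in 22.9%, 23.7% and 19.7%, Gimap5 in 7.19%, 12.9% and 13.9% and Gimap7 in 6.54%, 9.41% and 8.76%. These shares pool cells of 3 plates, rest on a single random draw and were not tested. Without thinning, Gimap1 was found in 44.3% of Low and 42.0% of High cells and Gimap6 in 77.0% and 83.9%. The order of Low and High thus turned for both, as it did for Gimap4, Gimap7 and Gimap9. It held for Gimap3, Gimap5 and Gimap8.

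Cell-to-cell spread, the variance of thinned counts divided by their mean, was below that of genes of like mean for 6 members and above it for the 2 rarest, by the mean over plates. It was 1.45 ± 0.23 for Gimap4 (n = 3 plates), 1.36 ± 0.17 for Gimap3 and 1.38 ± 0.19 for Gimap6, beside medians of 1.64, 1.65 and 1.61 over genes within 2-fold of their mean. Gimap9 had the lowest spread, 1.30 ± 0.052 beside 1.46 (1.20 to 1.91 for the middle 80% of those genes), and all 8 members lay inside this range of their own genes of like mean. Gimap5 was at 1.19, 2.26 and 1.58 on plates 1, 2 and 3 beside a median of 1.42, and Gimap7 at 1.42, 1.52 and 1.92 beside 1.39. For Gimap5 the high value was that of plate 2, which held the 6 cells of many UMIs. The largest count of Gimap1, 11 UMIs, was in a plate 3 cell that also gave Kcnq1ot1, a nuclear non-coding RNA, 18.1% of its 9574 UMIs.

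By the rule used for likeness, the highest mean rho with the family sum over 3978 genes outside it, the gene most alike was Tpra1 at 0.187 (0.15, 0.24 and 0.17 on plates 1, 2 and 3). Inpp5d, which encodes the lipid phosphatase SHIP1, followed at 0.158. Mtf2, Tnfaip8, Ttc39b, Wbp1l, Rpl28, Ugcg, Specc1l and Arhgap9 lay between 0.123 and 0.139. All 10 were positive in 3 of 3 plates, which is no separate support because the mean over these same plates ranked them. Over all genes the median was 0.005, 99% lay below 0.105 and 0 exceeded 0.2, so the most alike genes are the upper end of weak values. The lowest were Tmed5 (-0.145), Fam117a (-0.136), mt-Rnr2 (-0.131), Rps23 and Mgat2 (both -0.129). Of these, mt-Rnr2 was not negative throughout (0.016, -0.201 and -0.210 on plates 1, 2 and 3). The others were negative in 3 of 3 plates, again no separate support. Of the pathway lists, the 15 compared genes of IL-7 and FOXO1 signalling had a median rho of 0.018, from -0.075 for Il7r to 0.107 for Stat5b.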

How the data were processed

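Expected counts, the authors' deposited unit, are numbers of transcripts per gene and cell estimated from UMIs. Of the deposited values above 0, 98.7% lay within 0.005 of a whole UMI number corrected for collisions among 4096 UMI sequences, and no scaling between cells was found. CD5 was deposited as a fluorescence signal for each cell. The submitters' processing notes name BWA and mm10, and the aligner's version, the annotation and the strand setting are not given in the sources used here. Cells were mapped to plates by the suffix of their column names, and the deposited class was used as given. Spike-ins, 19.6% of counts, entered no step.

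Counts were summed per plate and class (9 sums) or per plate and CD5 bin (12 sums), rounded and fitted with edgeR 4.0.16 in R 4.3.3 (quasi-likelihood test, TMM, filterByExpr by class or bin, two-sided, Benjamini-Hochberg adjusted p of 0.05 over all genes). The plate was a block because its classes share a library, and deviations from the class means over 408 genes correlated within plates at 0.378 to 0.709. DESeq2 1.42.0 was an alternative. The text names all 8 members, up to 4 genes of smallest p per list, genes within 500 kb of the cluster, and the 10 most and 5 least alike genes. 1 gene that this rule names is not reported here. Correlations used genes that averaged 0.05 or more UMIs per thinned cell in each plate. The members and lists were chosen with earlier results of these data known. Doublets were not called, since wells were sorted singly. Python 3.11.15 with numpy 2.4.6, pandas 2.3.3, scipy 1.17.1 and matplotlib 3.10.9 was used.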

Additional observations from a re-analysis of the deposited data

How the results depend on the processing

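No member passed in either comparison under any alternative run (169 values, adjusted p 0.666 to 1.0), and 157 of them kept their direction. After thinning, the class difference turned for Gimap9 (-0.35), Gimap1 (0.31), Gimap3 (0.043) and Mcl1 (-0.020), and the slope for Gimap9 (-0.13) and Gimap1 (0.15). Bcl2l11 turned to 0.027 by DESeq2's Wald test. On leaving out 1 plate, the class difference ran from -0.062 (without plate 2) to 0.23 for Gimap4, from -0.35 to 0.090 (without plate 1) for Gimap1, from -0.10 (without plate 3) to 0.26 for Gimap5, and from -0.10 to 0.068 (without plate 2) for Gimap3. It ran from -0.21 (without plate 1) to 0.32 for Mcl1, from -0.22 to 0.45 (without plate 3) for Bcl2l11, from -0.056 (without plate 2) to 0.36 for Map1lc3b and from -0.26 to 0.018 (without plate 2) for Gabarap. Slopes ran from -0.031 (without plate 2) to 0.097 for Gimap4, from -0.12 to 0.043 (without plate 1) for Gimap1 and from -0.044 to 0.011 (without plate 2) for Gimap3. Gimap7 was too low for the thinned fits, which rest on a single random draw.

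Over all genes the 9 class calls became 16 with no filter, 3 after thinning, 1 without the cell of highest Kcnq1ot1 share, 0 by DESeq2's Wald test (147 genes at an unadjusted p under 0.05) and 0 to 20 on leaving out 1 plate (20 without plate 2, 0 without plate 1 or 3, where 290 and 280 genes had an unadjusted p below 0.05). With no replicate block edgeR called 0 (196 at that unadjusted p). The 6 slope calls became 10 with no filter, 3 by DESeq2's Wald test, 1 without that cell, 0 with no replicate block (178 at that unadjusted p) and 0 to 14 on leaving out 1 plate (14 without plate 2, 0 without plate 1 or 3, with 266 and 213). The family's level became 3751 CPM when mitochondrial RNA, Rn45s and Kcnq1ot1 were left out of the total. The median pair rho became 0.036 without thinning and 0.0076 to 0.028 on leaving out 1 plate, and the median spread of members, 1.42, became 1.68 at 4000 UMIs. Few UMIs limit Gimap5 and Gimap7 most. Leaving out plates for the levels was chosen after seeing the data. The cause of these shifts was not tested.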
